A study of Mus musculus with 10 samples.

Results

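Integrins, laminins, ICAMs and selectins are the genes through which cells hold on to each other and to the basement membrane. They were taken as every protein-coding gene whose symbol names an integrin alpha or beta chain, an ICAM, a laminin alpha, beta or gamma chain, or a selectin. The rule found 44 of 22046 protein-coding genes in a table of 54532 genes, and 41 of the 44 had enough reads to be tested. RNA was sequenced from obstructed kidneys of male C57BL/6 mice whose left ureter had been tied for 14 days from the age of 8 weeks (UUO, obstruction of 1 ureter). Dimethyl malonate (DMM), an inhibitor of succinate dehydrogenase, was given by intraperitoneal injection at 40 mg/kg every other day in 1 group and PBS in the other, with 5 libraries from independent replicates in each. Both groups were obstructed, so DMM was compared with PBS in obstructed kidneys, and an unobstructed kidney was not analysed here. Total counts lay between 16457495 and 18078777 in PBS and between 15722527 and 19475833 in DMM libraries.

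An integrin is a pair of an alpha and a beta chain in the cell membrane. Leukocyte integrins, such as the beta chain Itgb2 with Itgal, Itgam or Itgax, bind ICAMs on endothelium and other cells after selectins have slowed the cells on the vessel wall. Epithelial and stromal integrins bind laminins, collagens and fibronectin, and those with the alpha-v chain can activate latent TGF-beta, while in the obstructed kidney leukocytes enter the interstitium and basement membranes are remodelled.

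Some libraries stood apart and bear on the results. In a principal component analysis of log2 CPM (counts in each library scaled to a common depth), the first component, with 45.1% of the variance, separated DMM replicate 4, at 123, from the other 9 libraries, which lay between -20.7 and -2.36. Genes longer than 8000 bp lay a median of 0.58 above their mean over libraries in DMM 4 on the log2 scale, and genes shorter than 2000 bp had a median of -0.58. Of 14 tested members longer than 8000 bp, 13 had their highest value in DMM 4, against 6 of 27 shorter ones. Mitochondrial genes took 5.62% of the counts in DMM 4, 2.14, 2.30, 3.66, 1.97 and 2.005% in PBS 1 to 5 and 2.30, 3.79, 4.03 and 4.39% in DMM 1, 2, 3 and 5, so that the share was high in each DMM kidney but DMM 1 and, among PBS, in PBS 3. Its part in the results below was not tested. In DMM 4 20029 genes had a count, against at least 22898 elsewhere.

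**Figure D1:**
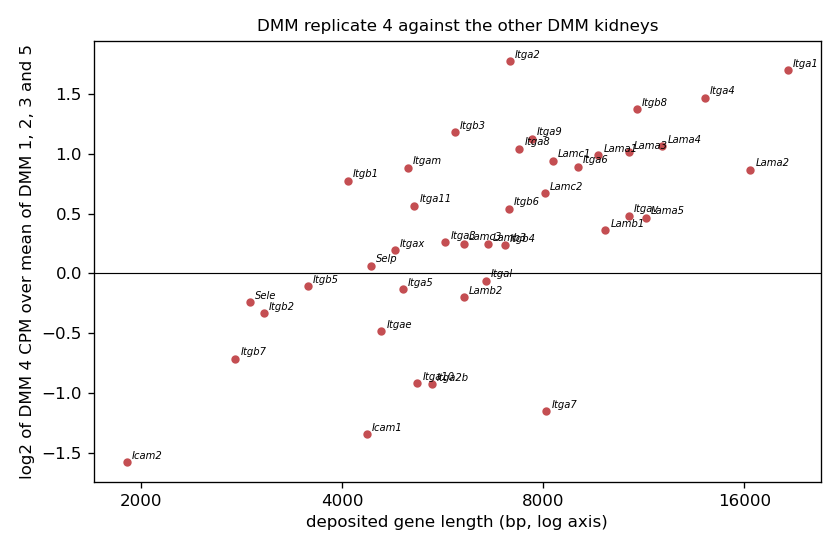
Each point is 1 tested gene, with its deposited length in bp on a log axis and, on the vertical axis, the log2 of its CPM in DMM replicate 4 over the mean CPM of the other DMM kidneys. Most long genes lie above 0, as Itga1 does at 1.702, with Itga7 at -1.15 an exception, and the shortest, Icam2, lies at -1.58.

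On the second component, with 29.0% of the variance, PBS replicate 3 lay at -18.3, on the side of DMM 2, 3 and 5 (-30.5, -50.4 and -51.5), while the other PBS kidneys lay between 13.5 and 46.8. DMM replicate 1 lay at 27.4, among the PBS kidneys, and DMM 4 at 15.3. Results are given first over all 10 libraries and then over the 8 that remain without PBS 3 and DMM 1. Each of these libraries resembles the other group, so leaving them out widens the difference between groups, and the 8 libraries are no independent check of the 10.

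A gene was called when edgeR's quasi-likelihood test gave an adjusted p under 0.05 and the fold change was above 1.5. Over all 10 libraries 0 of 41 tested members were called by edgeR, as were 0% of all 16505 tested genes in the higher and 0% in the lower direction. At an unadjusted p under 0.05 with the same fold change, 1 member was higher and 5 were lower, among 315 genes higher and 678 lower, and DESeq2 called 14 genes higher and 36 lower, of which 0 were members. Over the 8 libraries 0 members were called higher and 6 lower, against 2.73% and 3.56% of 16550 tested genes; at an unadjusted p under 0.05 and the same fold change 1 was higher and 7 lower, among 1067 genes higher and 1198 lower, and DESeq2 called 1 member higher and 6 lower, among 749 and 911 genes. The 6 from edgeR were the leukocyte chains Itgal, Itgax, Itgae, Itgb2 and Itgb7 and the fibronectin receptor chain Itga5. Among tested members, every DMM value lay above every PBS value in 0 over all 10 libraries (0.794% of all tested genes) and below in 0 (1.16%). Over the 8 libraries it lay above in 2, Itgb6 and Itgb8, and below in 7, against 9.45% and 10.6% of all tested genes.

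**Figure D2:**
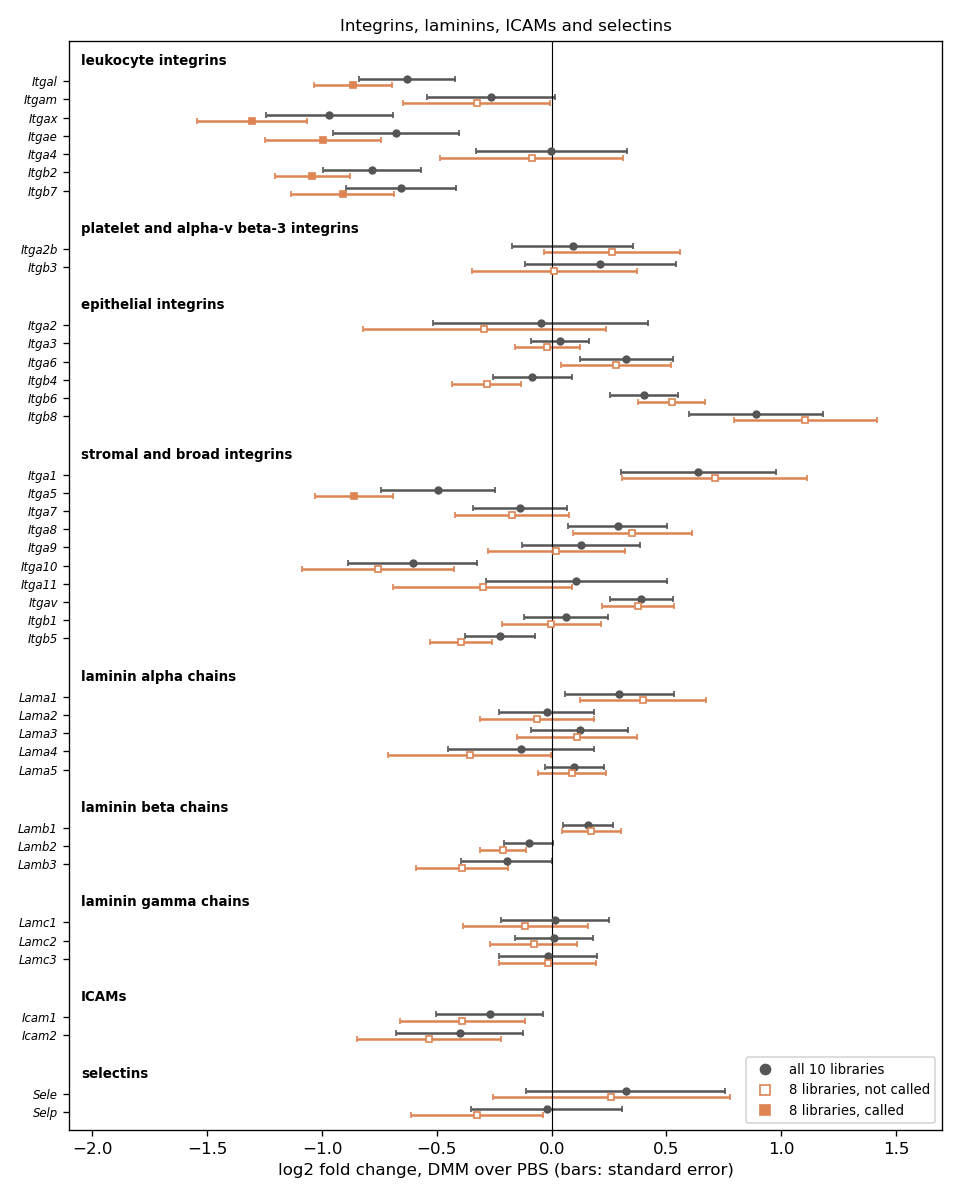
Log2 fold change of DMM over PBS for tested genes, with bars of 1 standard error, over all 10 libraries (grey) and over 8 (orange, filled where called). Of the leukocyte integrins 5 lie at -0.63 or lower over all 10 libraries, while laminin chains lie between -0.20 and 0.30.

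Of 7 tested leukocyte integrin chains 0 were called over all 10 libraries. Over the 8 libraries 5 of the 7 were called lower in DMM kidneys, against 3.56% of all tested genes. The median log2 fold change of the 7 chains was -0.66 over 10 and -0.91 over 8 libraries, where the median of all tested genes was 0.019 and 0.021. Itgb2 (chr10:77530252-77565708), the beta chain shared by the integrins that bind ICAMs, stood at 104, 81.2, 86.5, 89.9 and 107 CPM in PBS and at 87.1, 59.1, 36.8, 45.2 and 44.3 CPM in DMM kidneys. DMM 1 lay within the PBS values, and DMM 2 to 5 lay below all of them. The log2 fold change of Itgb2 was -0.78 (standard error 0.21, adjusted p = 0.378 by edgeR) over 10 and -1.04 (standard error 0.16, adjusted p = 0.00848) over 8 libraries. In bulk kidney RNA, fewer leukocytes and less RNA of a gene per leukocyte cannot be told apart.

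Itgax (chr7:128129547-128150657), which encodes CD11c of dendritic cells and many kidney macrophages, stood at 76.9, 52.6, 55.2, 58.1 and 77.5 CPM in PBS and at 56.4, 31.0, 17.9, 36.5 and 22.2 CPM in DMM kidneys. DMM 1 again lay among the PBS kidneys, and DMM 2 to 5 lay below every PBS kidney. Its log2 fold change was -0.97 (standard error 0.28, adjusted p = 0.378 by edgeR) over 10 and -1.30 (standard error 0.24, adjusted p = 0.0148) over 8 libraries. Itgal (chr7:127296260-127335138), the alpha chain of LFA-1 on lymphocytes and other leukocytes, stood at 35.6, 36.9, 35.5, 31.4 and 46.0 CPM in PBS and at 37.6, 24.2, 17.1, 23.2 and 17.9 CPM in DMM kidneys. DMM 1 was above every PBS kidney but replicate 5, and DMM 2 to 5 were below all of them. The log2 fold change of Itgal was -0.63 (standard error 0.21, adjusted p = 0.385 by edgeR) over 10 and -0.87 (standard error 0.17, adjusted p = 0.0197) over 8 libraries.

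Itgae (chr11:73090583-73147446) and Itgb7 (chr15:102215995-102231944) encode the chains of an integrin that holds lymphocytes to epithelial E-cadherin. Itgae stood at 9.59, 11.2, 6.63, 7.24 and 13.8 CPM in PBS and at 9.32, 6.995, 4.02, 4.59 and 5.35 CPM in DMM kidneys. DMM 1 and DMM 2 lay within the PBS range, whose lowest kidney was PBS 3. Itgb7 stood at 14.2, 20.4, 16.2, 16.3 and 22.8 CPM in PBS and at 17.8, 13.3, 8.50, 7.55 and 9.85 CPM in DMM kidneys. Here DMM 1 lay within the PBS range and the other DMM kidneys below it. The log2 fold change of Itgae was -0.68 (standard error 0.27, adjusted p = 0.421 by edgeR) over 10 and -0.997 (standard error 0.25, adjusted p = 0.0483) over 8 libraries. For Itgb7 it was -0.66 (standard error 0.24, adjusted p = 0.388 by edgeR) and -0.91 (standard error 0.22, adjusted p = 0.0442). The span of Itgae overlaps that of Haspin on the opposite strand, with a mean count of 91.9 against 135.7 for Itgae. The use of strand in counting is not given in the sources used here, and whether reads of Haspin entered the counts of Itgae was not tested.

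The other leukocyte chains did not pass. Itgam, the CD11b chain of monocytes and neutrophils, lay between 14.1 and 32.8 CPM in PBS and between 13.3 and 26.0 CPM in DMM kidneys, with PBS 4 and DMM 4 highest. Summed CPM of 6 neutrophil markers, with Csf3r the most abundant, was also highest in those kidneys, at 107 and 87.8, against values between 17.8 and 33.9 in the other 8, and its part in the values of Itgam was not tested. Itga4, which pairs with Itgb1 or Itgb7 to bind Vcam1, stood at 76.9 CPM in DMM 4 and between 20.4 and 47.6 CPM elsewhere, and its log2 fold change was -0.0017 over 10 and -0.087 over 8 libraries. It is 13978 bp long, and the part of gene length in its value in DMM 4 was not tested. Without DMM 4 as well as PBS 3 and DMM 1, a fit chosen after seeing the data, Itga4 was lower at -0.73 (adjusted p = 0.00435 by edgeR). Itgad was not tested, with counts of 2, 5, 4, 1 and 3 in PBS and 0 in every DMM kidney.

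**Figure D3:**
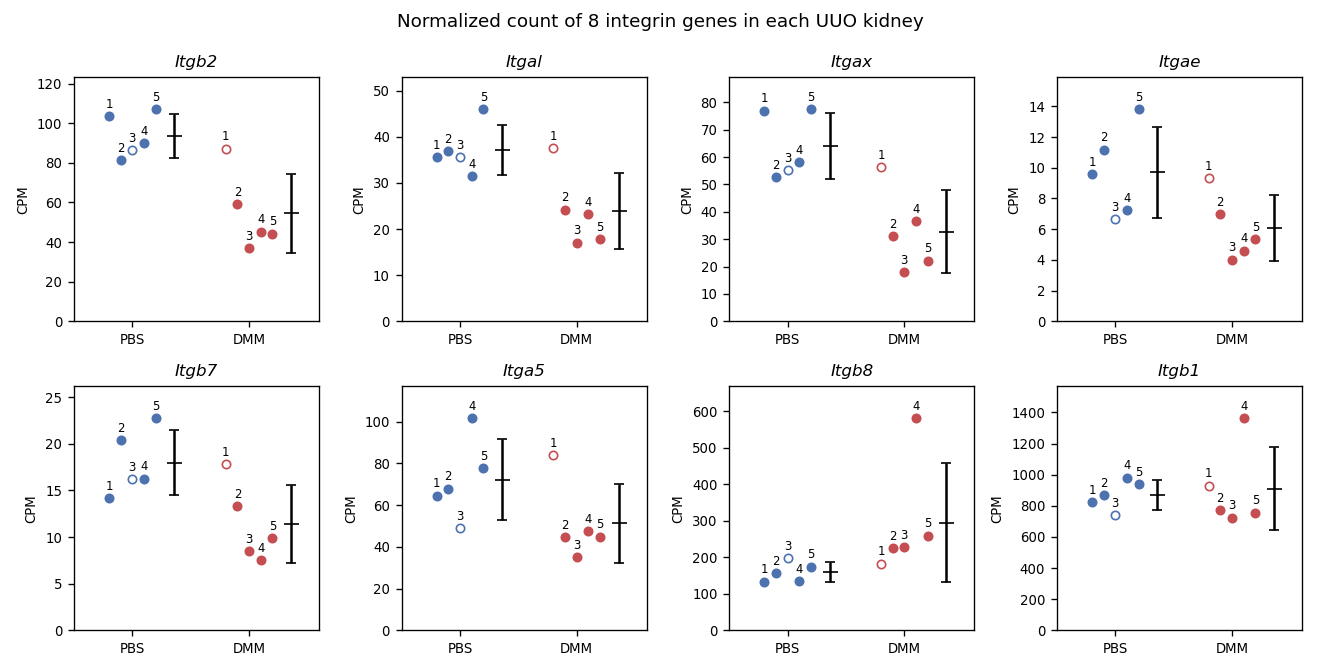
Normalized count in CPM of 8 integrin genes in each kidney, numbered by replicate, with the mean and SD of each group beside the points and PBS 3 and DMM 1 as open circles. DMM 1 lies with the PBS kidneys for the leukocyte chains, as at 87.1 CPM for Itgb2, and DMM 4 lies far above the rest for Itgb8, at 581 CPM.

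How far the calls over the 8 libraries rest on single kidneys was examined by leaving out each in turn, a step chosen after seeing the data. Itgb2 was called by edgeR in 8 of 8 such fits, with its highest adjusted p, 0.0394, without PBS 5. Itgax was called in 6 and not without PBS 5 or DMM 5 (highest adjusted p = 0.0562 by edgeR), and Itga5 in 5 and not without PBS 5, DMM 3 or DMM 5 (highest 0.0644). Itgal was called in 3, without PBS 4, DMM 2 or DMM 4 (highest adjusted p of the others 0.0669). Itgae and Itgb7 were called in 2 each, without DMM 2 or DMM 4, with adjusted p of up to 0.149 and 0.140 by edgeR. Members called lower numbered 1 without PBS 5 or DMM 5, where 276 of 16918 and 302 of 16891 tested genes were called lower. Without DMM 4 they numbered 10, with Itga2, Itga4 and Lama4 among those added, where 1281 of 16828 tested genes were called lower. When DMM 1 alone was left out of the 10 libraries, Itgal, Itgax and Itgb2 were called lower, with 50 genes higher and 436 lower in all. Without any other single library of the 10, 0 members were called.

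Sums of pan-leukocyte, monocyte and macrophage, and T cell markers were low in DMM 2 to 5, while those of other leukocyte lists overlapped between groups. Summed CPM of 6 pan-leukocyte genes, with Lcp1 the most abundant, was 982, 891, 823, 957 and 1082 in PBS and 878, 621, 458, 736 and 454 in DMM kidneys. DMM 1 lay within the PBS values and DMM 2 to 5 below them. Of these 6 genes 3 were called lower over the 8 libraries (Laptm5, Coro1a and Cd52) and 0 over 10, where 4 were lower at an unadjusted p under 0.05 by edgeR at any fold, as were 1071 of all 16505 tested genes, with 727 higher. The counts at an unadjusted p in the lists that follow have the same background. Calls over the 8 libraries have a background of 2.73% higher and 3.56% lower among all tested genes. Summed CPM of 9 monocyte and macrophage genes, with Lyz2 the most abundant, was 2272, 2285, 1802, 2029 and 2452 in PBS and 2115, 1470.1, 1159, 819 and 1178 in DMM kidneys. DMM 2 to 5 again lay below every PBS kidney, and 3 of the 9 were called lower over the 8 libraries (Cd68, C1qb and Ly6c2) and 0 over 10, where 7 were lower at an unadjusted p under 0.05. Summed CPM of 7 T cell genes was 51.5, 51.0, 51.0, 43.8 and 73.5 in PBS and 47.0, 39.0, 16.5, 20.8 and 21.03 in DMM kidneys. DMM 1 was the 1 DMM kidney within the PBS range, and Cd4, the most abundant of the list, was called lower over the 8 libraries and 0 of 7 over 10, where 5 were lower at an unadjusted p under 0.05. Of 6 dendritic cell, 5 NK cell, 4 B cell and 5 tested neutrophil genes 0 were called by edgeR in either set of libraries, and at an unadjusted p under 0.05 over 10 libraries 1 dendritic cell and 1 NK cell gene were lower and 0 of the B cell and neutrophil genes. Summed CPM of the dendritic cell genes, with Zbtb46 the most abundant, lay between 59.7 and 68.1 in PBS and between 38.5 and 74.3 in DMM kidneys, with DMM 4 at 64.9. For the NK cell genes, with Gzma the most abundant, it lay between 6.30 and 9.94 and between 4.54 and 8.15, with DMM 4 at 6.95. For the B cell genes, with Cd79b the most abundant, it lay between 6.14 and 7.98 and between 3.20 and 8.26, with DMM 2 highest. No gene of these lists was at 0 in all libraries, and the part of cell numbers in the values of the leukocyte integrins was not tested.

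To set the leukocyte beta chain against a general leukocyte gene, the log2 CPM of Itgb2 minus that of Ptprc (CD45) was taken in each kidney. The difference was -0.86, -0.97, -0.93, -0.85 and -0.85 in PBS and -0.88, -0.81, -0.94, -1.73 and -0.82 in DMM kidneys. DMM 4 was the 1 library far from the others. Ptprc is a long gene of 18313 bp, and the part of gene length in the value of DMM 4 was not tested. The mean of DMM minus that of PBS was -0.14 (p = 0.786, exact two-sided permutation test), -0.19 over the 8 libraries (p = 0.714, exact) and 0.029 without DMM 4. A p of this size does not show that the genes moved alike.

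Against Itgb1, the beta chain of most epithelial and stromal integrins, the log2 difference of Itgb2 was -2.99, -3.42, -3.10, -3.45 and -3.13 in PBS and -3.42, -3.70, -4.29, -4.91 and -4.09 in DMM kidneys. DMM 1 lay within the PBS values, DMM 2 to 5 below them, and DMM 4 lowest. The mean was -3.22 ± 0.20 (SD, n = 5) in PBS and -4.08 ± 0.57 (SD, n = 5) in DMM kidneys. The change was -0.87 (p = 0.0238 by exact two-sided permutation, adjusted over 2 differences 0.0476), where the smallest p that the relabelings can give is 0.00794. Over the 8 libraries the change was -1.002 with exact p = 0.0286, the smallest that 70 relabelings can give, and an adjusted p of 0.0571. The adjusted p was also above 0.05 without PBS 1, 3 or 5, at 0.111 each, and without PBS 2, at 0.0635 by exact permutation.

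Epithelial and stromal integrins had a positive log2 fold change in 10 of 16 tested chains over 10 libraries, in 8 of 16 when libraries were scaled by size alone without TMM, and in 7 of 16 over the 8 libraries. Their median was 0.085 over 10 libraries, -0.017 with library size alone, where the median of all tested genes was -0.064 in place of 0.019, and -0.0094 over the 8. Without single libraries it lay between -0.023 without DMM 4, with 7 of 16 positive, and 0.19 without DMM 3, with 11 of 16, and it was -0.18 with 6 of 16 when DMM 4 was left out of the 8. The 7 leukocyte chains were negative over 10 libraries, over the 8 and with library size alone, and 6 of 7 with RLE size factors over 10 libraries and with protein-coding genes alone. Without single libraries they were negative in 7 of 7, or in 6 of 7 without PBS 2, PBS 5, DMM 2, DMM 3 or DMM 5, and their median lay between -0.88 without DMM 1 and -0.53 without PBS 5. The difference between these families was tested for the pair Itgb2 and Itgb1 and for no other chains.

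Itgb8, an epithelial partner of the alpha-v chain, stood at 134, 157, 197, 135 and 175 CPM in PBS and at 183, 225, 227, 581 and 259.6 CPM in DMM kidneys. DMM 1 lay below PBS 3, DMM 2 to 5 lay above every PBS kidney, and DMM 4 was far above all others. Its log2 fold change was 0.89 (standard error 0.29, adjusted p = 0.385 by edgeR) over 10 and 1.11 (standard error 0.31, adjusted p = 0.0673) over 8 libraries. Without DMM 4 it was 0.49 (adjusted p = 0.256 by edgeR), and with PBS 3 and DMM 1 left out as well it was higher at 0.66 (adjusted p = 0.00214). Itgb8 was also called higher over the 8 libraries by DESeq2 and with an offset for gene length, at 0.89 (adjusted p = 0.0159 by edgeR), both chosen after seeing the data. Itgb6, the other epithelial partner of alpha-v, lay between 139.5 and 170.2 CPM in PBS and between 155 and 276 CPM in DMM kidneys. Its log2 fold change was 0.40 (standard error 0.15, adjusted p = 0.394 by edgeR) over 10 and 0.52 (standard error 0.15, adjusted p = 0.0672) over 8 libraries.

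Itgav, the alpha-v chain itself, stood at 412, 469.8, 416, 477 and 517 CPM in PBS and at 567, 507, 609.5, 778 and 542 CPM in DMM kidneys. DMM 2 lay below PBS 5, and the other DMM kidneys lay above every PBS kidney. Its log2 fold change was 0.39 (standard error 0.14, adjusted p = 0.387 by edgeR) over 10 and 0.38 (standard error 0.16, adjusted p = 0.205) over 8 libraries. Itga3, a laminin-binding chain, stood at 212, 228, 183, 268 and 196 CPM in PBS and at 221, 198, 235, 257 and 204 CPM in DMM kidneys, and the groups overlapped throughout. Its log2 fold change was 0.036 over 10 and -0.018 over 8 libraries. The laminin receptor chains Itga6 and Itgb4 and the collagen receptor chain Itga2 had log2 fold changes of 0.33, -0.084 and -0.048 over 10 libraries, and of 0.096, -0.13 and -0.62 without DMM 4. Itga2 was lower at -1.23 (adjusted p = 0.00245 by edgeR) when DMM 4 was left out of the 8 libraries.

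Itga5 (chr15:103344286-103366763), which pairs with Itgb1 as the classical fibronectin receptor, was the 1 chain of this family called by edgeR over the 8 libraries. It stood at 64.6, 67.9, 49.0, 102 and 77.5 CPM in PBS and at 84.0, 44.6, 35.0, 47.5 and 44.8 CPM in DMM kidneys. PBS 3 was the lowest PBS kidney and DMM 1 the highest DMM kidney, so both libraries left out lay toward the other group. The log2 fold change was -0.50 (standard error 0.25, adjusted p = 0.494 by edgeR) over 10 and -0.86 (standard error 0.17, adjusted p = 0.0198) over 8 libraries. Summed CPM of 7 fibroblast and myofibroblast markers, with Col1a1 the most abundant and 0 at 0 in all libraries, was 2938, 3984, 2217, 5702 and 3906 in PBS and 4919, 2300.5, 1774, 3296 and 2041 in DMM kidneys. PBS 3 was the lowest PBS kidney and DMM 1 the highest DMM kidney in that sum too. Of these markers the matrix gene Postn was called lower over the 8 libraries and 0 over 10 by edgeR, also at an unadjusted p under 0.05, and their part in the value of Itga5 was not tested.

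Itgb1 stood at 823, 868, 741, 982 and 940.2 CPM in PBS and at 930.0, 771, 723, 1364 and 757 CPM in DMM kidneys. DMM 4 was above every other library, and the remaining DMM kidneys overlapped with PBS. The log2 fold change was 0.062 (standard error 0.18, adjusted p = 0.902 by edgeR) over 10, -0.00072 over 8 and -0.13 over 9 libraries without DMM 4. With DMM 4 left out of the 8 it was -0.27 (adjusted p = 0.0301 by edgeR), a fold change under 1.5. Itga1, a collagen receptor chain and the longest member at 18599 bp, stood at 1077 CPM in DMM 4 and between 289 and 369 CPM in the other 9 libraries. The part of its length in that value was not tested. Itgb3, which pairs with alpha-v or with the platelet chain Itga2b, stood at 15.5, 19.1, 11.1, 28.8 and 21.5 CPM in PBS and at 25.6, 14.8, 16.5, 40.4 and 14.04 CPM in DMM kidneys, with overlapping groups and DMM 4 highest. Itga2b lay between 2.36 and 5.27 CPM, and of 5 platelet markers, whose sum lay between 6.47 and 57.4 CPM with Ppbp the most abundant and Gp1bb at 0, 2 were tested over 10 libraries and 3 over 8, with 0 called by edgeR and 0 at an unadjusted p under 0.05. The other stromal and broad chains, Itga7, Itga8, Itga9, Itga10, Itga11 and Itgb5, had log2 fold changes between -0.61 and 0.29 over 10 libraries and between -0.46 and 0.029 without DMM 4. The span of Itga7 overlaps that of Mettl7b on the opposite strand, with a mean count of 796.2 against 348.8, and the part of its reads was not tested either.

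On the FPKM scale, which divides by gene length and so allows levels of different genes to be compared, Itgb1 had the highest mean level of the members at 217 FPKM, followed by Itgb5 at 126 FPKM. Lamb1 and Itgav had 53.7 and 48.9 FPKM, and Itga3, Lama5, Itga6 and Lamc1 had 38.3, 35.3, 35.1 and 34.9 FPKM, in an order that differs between PBS and DMM kidneys. Itgb2, the leukocyte chain of highest level, had 24.1 FPKM, Itgax 10.01 FPKM and Itgal 4.62 FPKM. These means are over all 10 libraries, DMM 4 among them.

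Of 11 laminin chains 0 were called by edgeR or DESeq2 over the 10 or the 8 libraries, and 0 had an unadjusted p under 0.05 by edgeR. Their log2 fold changes over 10 libraries lay between -0.20 and 0.30, with a median of 0.0098 that was -0.095 with library size alone (all tested genes -0.064), -0.065 over the 8 and -0.15 without DMM 4. Without DMM 4 the value was negative in 9 of 11 chains. It was also negative in 9 of 11 when DMM 4 was left out of the 8, a fit chosen after seeing the data, where the median was -0.26. In that fit 1 chain, Lama4, was called lower at -0.84 (adjusted p = 0.0115 by edgeR), as were 1281 of all 16828 tested genes. Lama5, the alpha chain of mature tubular and glomerular basement membrane, stood at 436, 414, 360.3, 352 and 391 CPM in PBS and at 396, 364, 408, 537 and 386 CPM in DMM kidneys. Lamb1, the beta chain of highest level on the FPKM scale, stood at 506, 549, 505, 495 and 481 CPM in PBS and at 538, 529, 559, 689 and 515 CPM in DMM kidneys. In both genes DMM 4 was highest and other DMM kidneys overlapped with PBS. Lamb2 was below every PBS kidney in each DMM kidney of the 8 libraries, and its change on the log2 scale was -0.21 (standard error 0.10, adjusted p = 0.266) by edgeR. The span of Lamb3 overlaps that of Hsd11b1 on the opposite strand, with a mean count of 1762 against 492.4 for Lamb3, and its part was not tested.

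Lamc1, the gamma chain of most laminins, stood at 268, 293, 228, 355 and 299.6 CPM in PBS and at 336, 234, 204, 475 and 213 CPM in DMM kidneys. DMM 1 and DMM 4 were the high DMM kidneys, and the groups overlapped. Its log2 fold change was 0.016 over 10, -0.11 over 8 and -0.23 over 9 libraries without DMM 4. With DMM 4 left out of the 8 it was -0.49 (adjusted p = 0.00661 by edgeR), again under the fold threshold. Lama1, an alpha chain of early basement membranes, stood at 33.8, 23.5, 27.5, 17.7 and 24.8 CPM in PBS and at 24.7, 28.0, 25.6, 51.9 and 26.0 CPM in DMM kidneys. Apart from DMM 4 its DMM values lay within the PBS range, and the log2 fold change was 0.30 with and 0.035 without DMM 4. Lamc3 stood at 32.5, 20.2, 40.4, 24.1 and 36.4 CPM in PBS and at 39.9, 24.5, 23.9, 34.8 and 28.8 CPM in DMM kidneys, and every DMM value lay within the PBS range.

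Icam1, a ligand of the Itgb2 integrins on endothelium and tubules, stood at 113, 141, 113, 116 and 145 CPM in PBS and at 127, 118, 121, 46.6 and 108 CPM in DMM kidneys. DMM 4 lay far below the others, DMM 5 just under the lowest PBS kidney, and DMM 1, 2 and 3 among PBS. The log2 fold change was -0.27 (standard error 0.23, adjusted p = 0.645 by edgeR) over 10 and -0.083 over 9 libraries without DMM 4. Icam2, of endothelium and platelets, stood at 10.1, 12.9, 13.4, 15.3 and 12.4 CPM in PBS and at 13.6, 9.83, 10.5, 3.75 and 10.9 CPM in DMM kidneys. DMM 4 was again lowest, and the log2 fold change was -0.40 over 10 and -0.19 without DMM 4. Icam4 had 0 counts in every library, and Icam5 had too few to test.

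Sele, the endothelial selectin, stood at 0.794, 1.88, 0.787, 1.54 and 0.529 CPM in PBS and at 1.23, 0.567, 2.38, 1.21 and 1.52 CPM in DMM kidneys. The groups overlapped, with DMM 3 highest and PBS 5 lowest. Selp, of platelets and endothelium, lay between 2.08 and 8.72 CPM. Log2 fold changes of Sele and Selp over 10 libraries were 0.32 and -0.022. Without single libraries that of Sele lay between 0.033 without DMM 3 and 0.60 without PBS 2, and 0 of Sele, Selp, Icam1 and Icam2 were called by edgeR or DESeq2 or had an unadjusted p under 0.05 by edgeR in either set of libraries. Of 7 endothelial markers, with Pecam1 the most abundant and sums between 629.6 and 941 CPM in PBS and between 680.0 and 1046 CPM in DMM kidneys, 0 were called by edgeR and 0 had an unadjusted p under 0.05.

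Of 13 tested partners in leukocyte adhesion, 0 were called by edgeR over 10 libraries, where 2 were lower at an unadjusted p under 0.05, and 3 were called over 8. For this and the next 2 lists, the share of all tested genes called over the 8 libraries was 2.73% higher and 3.56% lower. Selplg, the P-selectin ligand of leukocytes, was lower at -1.24 (standard error 0.20, adjusted p = 0.00913) over 8 and -0.88 over 10 libraries by edgeR. Fut4, a fucosyltransferase for selectin ligands, was lower at -0.62 (standard error 0.15, adjusted p = 0.0389) over 8 and -0.45 over 10 libraries and Gcnt1, a glycosyltransferase of the same path, was higher at 0.63 (standard error 0.14, adjusted p = 0.0318) over 8 and 0.31 over 10 libraries by edgeR. In Gcnt1 PBS 3, at 403 CPM, was above every DMM kidney and DMM 1, at 213 CPM, lay among the PBS kidneys. Of 14 tested matrix ligands and laminin partners, 0 were called over 10 libraries, where 1 was lower at an unadjusted p under 0.05, and 1 over 8, the basement membrane proteoglycan gene Agrn, which was lower at -0.71 (standard error 0.13, adjusted p = 0.0162) over 8 and -0.51 over 10 libraries by edgeR. Of 30 adaptors and signalling genes 0 were called by edgeR over 10 libraries, where 1 was higher and 4 lower at an unadjusted p under 0.05, and 4 were called over 8, each lower. Among them, the Rap1 partner Apbb1ip was at -0.90 (standard error 0.19, adjusted p = 0.0256) over 8 and -0.65 over 10 libraries and the leukocyte kindlin Fermt3 at -0.91 (standard error 0.19, adjusted p = 0.0261) over 8 and -0.72 over 10 libraries by edgeR. The kinase Fgr was at -0.84 (standard error 0.20, adjusted p = 0.0384) over 8 and -0.68 over 10 libraries by edgeR. Tln1 and Fermt2, widely expressed and described after their values were seen, were not called. Their log2 fold changes were -0.0036 and 0.18 over the 8 libraries. Of the 30 genes 20 were negative and 10 positive over the 8 libraries, where 7878 of 16550 tested genes were negative.

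Summed CPM of 7 proximal tubule genes, with Lrp2 the most abundant, was 1604, 1598, 3935, 664 and 1193 in PBS and 1127, 3081, 3841, 3964 and 4395 in DMM kidneys. PBS 3 lay among the DMM kidneys and DMM 1 among the PBS kidneys. Over the 8 libraries 3 of the 7 were called higher (Lrp2, Cubn and Slc5a12) and over 10 libraries 0 were, with 2 higher at an unadjusted p under 0.05 by edgeR. Summed CPM of 7 genes of the loop, distal tubule and collecting duct, with Umod the most abundant, was 3249, 2751, 4453, 2076 and 1853 in PBS and 2888, 4342, 4972, 1914 and 5321 in DMM kidneys. PBS 3 was again highest of the PBS kidneys and DMM 4 was lowest of the DMM kidneys, and 2 of the 7 were called higher over the 8 libraries (Slc12a1 and Slc12a3) and 0 over 10, where 0 had an unadjusted p under 0.05 by edgeR. Of 5 podocyte and 6 tubular injury genes 0 were called by edgeR in either set, and 0 had an unadjusted p under 0.05. Perirenal fat genes, of which 0 were tested, summed to 27.3 CPM in PBS 4 and to at most 6.12 CPM in other libraries. The part of these cells in the values of the members was not tested, and calls of genes other than members were not examined without single libraries.

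Promoters are shown for members called lower over the 8 libraries. Windows of 300 bases at RefSeq transcript starts (build GRCm38.p6) were matched by symbol for 28 of the 44 members, and 24 of their 31 windows hold the deposited gene start. Of the 6 members called lower by edgeR, Itgax, Itgb7 and Itga5 had an entry, and Itgal, Itgae and Itgb2 are named only. The letters GAGGAAG, a core bound by the leukocyte factor PU.1, were searched on both strands, a motif chosen after seeing the data, and matches are in capitals. Itgax lies at chr7:128129300-128129599 on the plus strand, Itgb7 at chr15:102231886-102232185 and Itga5 at chr15:103366742-103367041, both on the minus strand, each written 5′ to 3′ along its gene.
Itgax: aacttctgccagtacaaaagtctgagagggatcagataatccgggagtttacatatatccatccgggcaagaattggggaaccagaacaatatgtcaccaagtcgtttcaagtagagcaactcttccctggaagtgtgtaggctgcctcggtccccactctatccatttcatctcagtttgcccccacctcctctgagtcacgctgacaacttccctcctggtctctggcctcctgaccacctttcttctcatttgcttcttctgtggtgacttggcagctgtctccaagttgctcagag
Itgb7: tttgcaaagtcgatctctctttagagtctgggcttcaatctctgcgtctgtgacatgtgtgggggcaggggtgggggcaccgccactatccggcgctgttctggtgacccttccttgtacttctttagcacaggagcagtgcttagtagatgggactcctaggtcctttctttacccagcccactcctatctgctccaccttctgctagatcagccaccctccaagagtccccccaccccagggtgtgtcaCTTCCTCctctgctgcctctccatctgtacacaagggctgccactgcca
Itga5: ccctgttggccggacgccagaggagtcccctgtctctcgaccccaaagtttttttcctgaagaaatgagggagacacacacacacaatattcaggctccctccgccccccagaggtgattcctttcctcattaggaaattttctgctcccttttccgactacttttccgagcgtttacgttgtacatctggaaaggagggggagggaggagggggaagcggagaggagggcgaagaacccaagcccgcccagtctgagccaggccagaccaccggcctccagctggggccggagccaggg
The core was found in 1 of these promoters, that of Itgb7, on the strand opposite to the gene. It was in 2 of 4 promoters of leukocyte integrins, Itgam and Itgb7, in 8 of 31 promoters of all members (5 of 24 that hold the gene start) and in 13.6% of 32851 promoters in the table. A core of the interferon-stimulated element (GAAA, any 2 bases and GAAA) was in 0 of 4 promoters of leukocyte integrins, in 2 of 31 of all members (2 of 24 that hold the gene start) and in 3.44% of all promoters. A match describes letters in this window and no more.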

How the data were processed

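RNA libraries from UUO kidneys were compared, 5 of PBS and 5 of DMM treatment, each treated here as 1 kidney of 1 mouse, as the methods give 5 independent replicates and no more. The authors aligned reads to mm10, and the deposited table gives a raw count per gene and library. HISAT2 2.0.5 is named in the submitters' processing notes. The counting tool, the annotation and the use of strand are not given in the sources used here. The authors also deposited FPKM values, counts divided by gene length and library size, which were used for levels between genes and for no test. The deposited gene length is in bp. The positions of 44 of 44 members, and their lengths as the union of exons, equal those in GENCODE M21 (GRCm38). The deposited table also holds the authors' DESeq2 comparison (group means, log2 fold changes, p-values and adjusted p-values), which was not used. Per-sample columns not used number 0.

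Counts were filtered by filterByExpr, scaled by TMM and tested by the quasi-likelihood F test of edgeR 4.0.16 (limma 3.58.1, R 4.3.3), with Benjamini-Hochberg adjustment over all tested genes. Standard errors are the log2 fold change over the square root of F. CPM values use the TMM factors of all 10 libraries, and log2 CPM a prior count of 2. The differences of Itgb2 from Itgb1 and Ptprc were tested by exact permutation of libraries. The steps were tested on simulated counts. Figures used Python 3.11.15 and matplotlib 3.10.9.

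All 10 libraries enter the first fit, as the methods describe 5 independent replicates per group. The set of 8 was named by earlier results of these data as that behind the authors' comparison, which was not checked here. Members and lists were chosen with earlier results of these data known. Values in each library are given for members called over 8 or 10 libraries and, in each member group, for the member of highest mean FPKM and that of smallest p over 10 libraries. Of pathway lists, called genes are named, up to 3 of smallest p in each. Some genes that this rule names are counted but not reported here. Fgr, Tln1, Fermt2 and the members Itgam, Itga4, Itga1, Itga2b, Itgb6 and Lamb2 were described after their values were seen. Alternatives were DESeq2 1.42.0, scaling by library size alone or by RLE, looser and stricter filters, protein-coding genes alone, no fold threshold, a prior count of 0.5, the replicate number as a block and leaving out each library.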

Additional observations from a re-analysis of the deposited data

Results flagged for a closer look

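Among 38 groups of 5 libraries examined for the members with values given in each library, 6 held a library far from the others, and in 5 of these it was DMM replicate 4. Chance sets apart about 1 in 20 groups of independent, normally distributed values. The groups here come from the same 10 libraries and are not independent, so the number found cannot be compared with that share. The gap to the nearest library, as a share of the range of the group, was compared with a limit of 0.71. In DMM kidneys it was 0.808 for Itgb8, where DMM 4 had 581 CPM, 0.877 for Lama1, where it had 51.9 CPM, 0.745 for Lama5, at 537 CPM, and 0.7504 for Lamb1, at 689 CPM. For Icam1 it was 0.757, with DMM 4 lowest at 46.6 CPM. For Itga5 it was 0.744, with DMM 1 highest at 84.0 CPM.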

How the results depend on the processing

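Over all 10 libraries 0 members were called by edgeR with TMM or RLE factors, library size alone, other filters, protein-coding genes alone, no fold threshold or a gene length offset (the last added after seeing the data), and 0 by DESeq2, which called 14 genes higher and 36 lower. Without single libraries, 0 to 50 genes were higher, 0 to 436 lower and 0 to 3 members lower, with the highest counts without DMM 1. Over the 8 libraries 452 genes were higher and 590 lower, with 6 members lower. Added after seeing the data, DESeq2 over the 8 gave 749 and 911 genes with 1 member higher and 6 lower, library size alone 276 and 700 with 6 lower, a gene length offset 575 and 681 with 1 higher and 6 lower, and leaving out DMM 4 too 1129 and 1281 with 1 higher and 10 lower. The Itgb2 to Itgb1 difference ranged from -1.03 to -0.66 without single libraries, and was -1.002 over the 8 (adjusted p = 0.0571, exact permutation). With the replicate block it was -0.87 (adjusted p = 0.125 by exact sign flips, whose smallest unadjusted p is 0.0625). The Itgb2 to Ptprc difference ranged from -0.20 to 0.029 without single libraries. Replicate numbers did not pair the kidneys: correlations of same-numbered kidneys were -0.06, 0.08, 0.34, 0.12 and -0.22, and 1 of 5 matched its own number best. The replicate block called 0 genes, with Itgb2 at -0.84 (adjusted p = 0.251 by edgeR). Signs of values not called over 10 libraries turned as follows, and the cause was not tested. Without single libraries, log2 fold changes ranged from -0.11 to 0.40 for Itgb3, -0.021 to 0.12 for Itga3, -0.13 to 0.13 for Itgb1, -0.0083 to 0.16 for Lama5, -0.23 to 0.12 for Lamc1 and -0.14 to 0.10 for Lamc3. Over the 8 libraries Itga3, Itgb1 and Lamc1 were -0.018, -0.00072 and -0.11, by DESeq2 over the 8 -0.018, -0.0027 and -0.12, and with library size alone over 10 -0.057, -0.045 and -0.095, where the scaling also moved the median of all tested genes from 0.019 to -0.064. Without a filter Lamc1 was -0.015. With the replicate block Lamc1 was -0.049 and Lamc3 0.0025, and over pairs 2, 4 and 5 alone Itgb3 was -0.16, Itga3 -0.071, Itgb1 -0.0058, Lamc1 -0.14, Lamc3 0.16 and Sele -0.21. Over the 8 without DMM 4, Itgb3, Itga3, Itgb1, Lama5 and Lamc1 were -0.49, -0.091, -0.27, -0.046 and -0.49 (adjusted p of Itgb1 0.0301 and of Lamc1 0.00661 by edgeR, both under the fold threshold). With library size alone over the 8 these genes were at -0.15, -0.14, -0.14, -0.041 and -0.26, where the median of all tested genes was -0.093 in place of 0.021. With the length offset Lama5 and Lamc1 were -0.025 and -0.091 over 10, and Itgb3, Itga3, Lama5 and Lamc1 were -0.041, -0.035, -0.057 and -0.25 over the 8.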
